A study of Mus musculus with 10 samples.

Results

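The genes described here are the Toll-like receptors of the mouse that carry the symbols Tlr1 to Tlr9 and Tlr13. They were taken by gene symbol, and all 10 were found among the 16667 genes with normalized counts and among the 29242 genes with TPM, which gives transcript abundance per length within a library. RNA was sequenced from the visceral fat of 10 wild type C57BL/6 mice aged 10 weeks, and the sample titles end in gwat. The 5 KPC mice had been given orthotopic pancreatic tumours, which grow in the pancreas itself, and the 5 sham mice had undergone sham surgery. KPC is the usual name of a mouse model of pancreatic cancer. Tumour burden, time after surgery, sex and the origin of the tumour cells were not used here, and each group was modelled by whole tissue pieces from 5 mice.

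Toll-like receptors are membrane proteins of innate immunity that bind molecules of microbes or of damaged cells. Those on the cell surface bind lipids, lipoproteins and flagellin, while those in endosomes bind nucleic acids after transport by the chaperone Unc93b1. All but Tlr3 pass the signal through the adaptor Myd88 to kinases of the Irak family, and Tlr3 and Tlr4 use the adaptor Ticam1, with NF-kappa-B and interferon regulatory factors at the end of both routes. In fat, macrophages carry many of these receptors, and adipocytes and other stromal cells are known to carry some, Tlr4 among them.

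Library totals lay between 20941242 and 24449863 normalized counts. KPC mouse 1 stood apart, with 15.7% of its TPM from mitochondrial genes against 26.3% to 33.3% in the other 9 libraries, and with a median correlation to the other libraries of 0.908 against 0.939 to 0.959. Its red cell markers summed to 37780 TPM, against 7963 to 18640 TPM in the other KPC mice and 4432 to 11990 TPM in sham mice. The 8 adipocyte markers summed to 36620 to 44630 TPM in KPC mice and 34890 to 42700 TPM in sham mice, so the labelled tissue carried its defining markers in every library. Fabp4 and Cfd made up most of these sums. Of all 10 libraries KPC mouse 1 had the lowest Adipoq, at 3322 TPM, and the lowest Plin1, at 66.2 TPM. Plin1 differed by -0.47 on the log2 scale (limma adjusted p = 0.279), while 4 of the 8 markers had a positive difference. Skeletal muscle markers reached 3092 TPM in sham mouse 5, 1040 TPM in sham mouse 4 and 377 TPM in sham mouse 3, against at most 175.5 TPM in any KPC mouse. Many results that rest on KPC mouse 1 are given with and without it, and the others only with it. In whole tissue, more cells of a type and more RNA per cell cannot be told apart.

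The promoters of the 3 members whose KPC and sham normalized counts did not overlap are shown first. They come from RefSeq on build GRCm38.p6, in which 8 of the 10 members had an entry, and Tlr4 and Tlr7 had none. Each is printed 5′ to 3′ on the strand of its gene up to the start of the gene in GENCODE vM21. Capitals mark letters that matched a motif in a first search of 6 motifs on both strands, and overlapping matches run together.
Tlr13, chrX:106143025-106143203, + strand: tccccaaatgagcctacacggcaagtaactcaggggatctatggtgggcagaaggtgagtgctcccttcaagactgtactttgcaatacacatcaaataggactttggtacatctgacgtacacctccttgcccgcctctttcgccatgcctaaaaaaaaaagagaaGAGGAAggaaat
Tlr8, chrX:167264330-167264579, - strand: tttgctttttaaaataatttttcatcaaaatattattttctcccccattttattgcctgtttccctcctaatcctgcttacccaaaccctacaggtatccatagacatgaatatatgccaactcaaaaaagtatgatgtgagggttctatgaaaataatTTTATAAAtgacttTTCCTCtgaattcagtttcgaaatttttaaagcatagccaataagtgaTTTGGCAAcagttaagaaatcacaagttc
Tlr5, chr1:182954538-182954787, + strand: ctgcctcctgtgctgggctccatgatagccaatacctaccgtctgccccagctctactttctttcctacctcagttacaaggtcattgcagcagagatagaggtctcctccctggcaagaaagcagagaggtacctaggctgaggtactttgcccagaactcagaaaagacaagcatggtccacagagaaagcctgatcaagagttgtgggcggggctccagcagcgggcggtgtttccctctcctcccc
The core letters of the myeloid factor PU.1, GAGGAA, stood in the 250 bases before the start of 4 of the 8 members, Tlr1, Tlr8, Tlr9 and Tlr13, and in 23.25% of all 32851 promoters. The 8 members have 10 promoter entries, and a member is counted where any of its entries matched, while shares are per entry. In the Tlr8 promoter they lie on the other strand. The Tlr8 promoter also held the C/EBP letters TTGCNNAA, which 3 members and 9.56% of promoters held, and the TATA box letters TATAAA, found in 2 members and 12.4% of promoters. The AP-1 letters TGANTCA were found in Tlr9 and in 6.75% of promoters. A form of the NF-kappa-B motif of 10 letters was found in Tlr3 and in 1.41% of promoters, and a form of the interferon response element ISRE of 10 letters in Tlr6 and in 2.98%. After these matches had been seen, both were searched again in forms of 9 letters. GGNNTTTCC was found in 2 members, Tlr3 and Tlr5, and in 4.93% of promoters, and AAANNGAAA in 3 members, Tlr2, Tlr3 and Tlr6, and in 9.37%. The Tlr5 promoter thus matched none of the 6 motifs first searched and 1 of the 2 shorter forms. Such matches are a description of letters only.

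No member passed the test between KPC and sham mice. With limma on log2(normalized count + 1) over 14203 genes, 0 of the 10 members had an adjusted p under 0.05 in either direction, while 0.0493% of all genes tested were called higher and 0.00704% lower. At an unadjusted p under 0.05, 5 members were higher in KPC mice and 0 lower, against 7.61% of all genes tested that were higher and 5.91% that were lower. In 3 members, Tlr13, Tlr8 and Tlr5, the normalized counts of all KPC mice exceeded those of all sham mice, against 2.75% of all genes. The difference was positive in 9 of 10 members and in 46.9% of all genes, and its median was 0.57 over the members and -0.02 over all genes on the log2 scale. Without KPC mouse 1 the median over the members was 0.40, and on log2(TPM + 1) it was 0.36. All 10 members passed the filter on low values. KPC mouse 1 held the highest value of 6 members, KPC mouse 4 of 3 and KPC mouse 2 of 1.

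**Figure D1:**
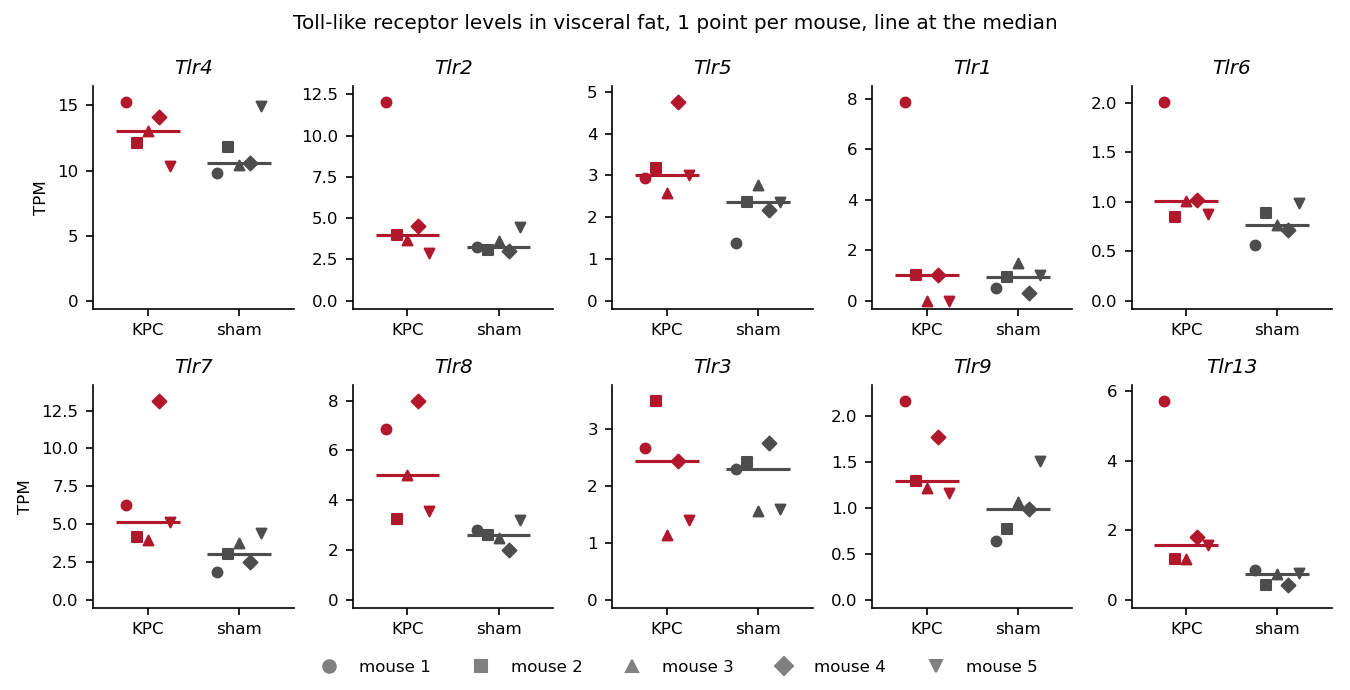
TPM of each member in each mouse, with KPC mice left of sham mice, 1 point per mouse, a marker shape per mouse number and a line at the group median; each panel has its own linear axis. All KPC points of Tlr13 and Tlr8 lie above all sham points, those of Tlr5 run from 2.59 to 4.76 TPM beside 1.38 to 2.77 TPM in sham mice, and KPC mouse 1 is the highest for Tlr1, Tlr2, Tlr6 and Tlr13.

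Among the endosomal receptors, Tlr13, which binds bacterial ribosomal RNA in mice, showed the largest positive difference of the 10 members with all 10 mice. Tlr13 had 481, 98.7, 97.8, 133 and 124 normalized counts in KPC mice, against 77.0, 34.6, 55.9, 31.8 and 59.4 in sham mice. The groups did not overlap, and KPC mouse 1 held more than any other mouse. The Tlr13 difference was 1.60 ± 0.43 (SE) on the log2 scale, a 3.03-fold higher level with a 95% interval of 1.57 to 5.83, and it did not pass (limma adjusted p = 0.186). Without KPC mouse 1 it was 1.18 ± 0.27, or 2.27-fold, with an adjusted p of 0.102 in limma. The gene (ENSMUSG00000033777) lies at chrX:106143204-106160493 on the + strand of GRCm38.

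Tlr7, which binds single-stranded RNA, and Tlr8 are neighbours on the X chromosome, with 40599 bases between them. Tlr8 (ENSMUSG00000040522, chrX:167242696-167264329, - strand) had 338, 158, 246, 346 and 163 normalized counts in KPC mice, against 146, 121, 109, 88.6 and 142 in sham mice. The groups did not overlap, with the highest KPC values in mice 1 and 4. Its difference was 0.98 ± 0.25 on the log2 scale, or 1.97-fold with an interval of 1.34 to 2.90 (limma adjusted p = 0.171), and 0.85 without KPC mouse 1. Tlr7 (ENSMUSG00000044583, chrX:167304929-167330558, - strand) had 387, 251, 240.3, 709.97 and 294 normalized counts in KPC mice, against 118, 176, 204, 138 and 246 in sham mice. KPC mouse 4 was the highest, and the groups overlapped because KPC mouse 3 lay just under sham mouse 5. The Tlr7 difference was 1.01 ± 0.30 on the log2 scale, or 2.02-fold with an interval of 1.27 to 3.20 (limma adjusted p = 0.225).

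Tlr9, the receptor for unmethylated CpG DNA (ENSMUSG00000045322, chr9:106222598-106226883, + strand), had 149, 87.9, 82.8, 107 and 74.1 normalized counts in KPC mice, against 46.4, 50.7, 65.1, 61.4 and 93.6 in sham mice. The groups overlapped through sham mouse 5. The Tlr9 difference was 0.65 ± 0.25 on the log2 scale (limma adjusted p = 0.307), and 0.50 without KPC mouse 1. Tlr3, the receptor for double-stranded RNA (ENSMUSG00000031639, chr8:45395665-45411080, - strand), had 237, 304, 99.2, 189.8 and 116 normalized counts in KPC mice, against 214, 204, 123, 219.6 and 128 in sham mice. The Tlr3 groups overlapped over nearly their whole range, with a difference of 0.01 ± 0.32 on the log2 scale and an interval of 0.624-fold to 1.63-fold (limma adjusted p = 0.992). Tlr3 shares 381 of its 5207 exon bases with Gm45542 on the opposite strand, and with no strand setting given in the sources used here, reads from those bases cannot be told apart. Summed over the 5 endosomal members, TPM ran from 12.5 to 27.1 in KPC mice and from 8.46 to 11.5 in sham mice, with no overlap. The sum of the cell surface members ran from 17.1 to 40.1 TPM in KPC mice and from 15.6 to 23.8 TPM in sham mice, with overlap.

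**Figure D2:**
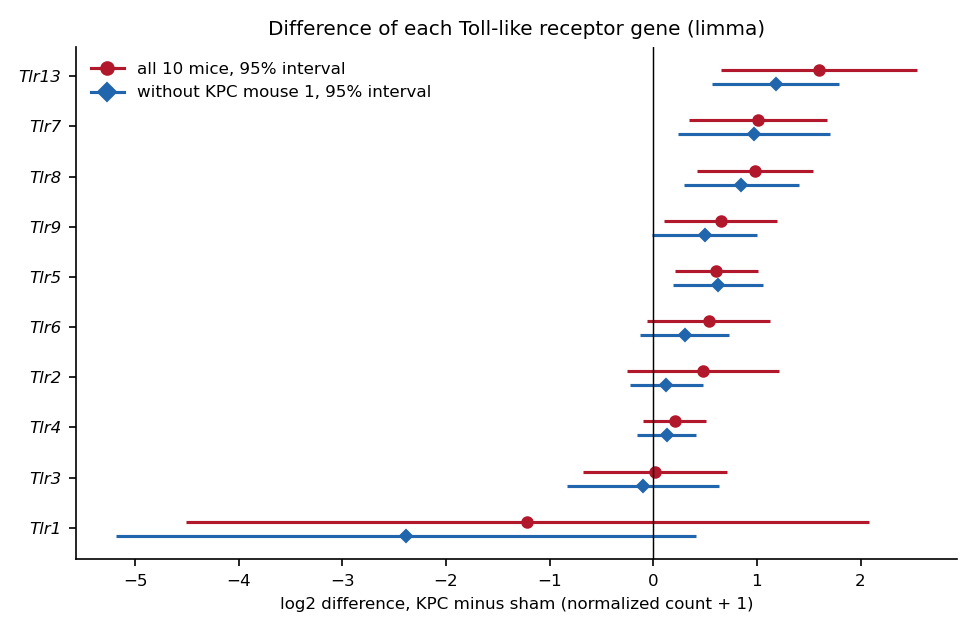
The log2 difference of each member, KPC minus sham, from limma on log2(normalized count + 1), with 95% intervals for all 10 mice (circles) and without KPC mouse 1 (diamonds). Tlr13, Tlr7, Tlr8 and Tlr5 have intervals above 0 in both fits, the interval of Tlr9 reaches 0 without KPC mouse 1, and Tlr1 has by far the widest interval.

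On the cell surface, Tlr5, the receptor for bacterial flagellin (ENSMUSG00000079164, chr1:182954788-182976044, + strand), was the member without overlap between groups in normalized counts. It had 159, 169, 138, 225 and 150.5 normalized counts in KPC mice, against 78.0, 120.3, 132, 105 and 115 in sham mice. KPC mouse 4 held its highest value. In TPM its groups overlapped, at 2.59 to 4.76 TPM in KPC mice and 1.38 to 2.77 TPM in sham mice. The Tlr5 difference was 0.61 ± 0.18 on the log2 scale, or 1.53-fold with an interval of 1.15 to 2.02 (limma adjusted p = 0.233), and 0.63 without KPC mouse 1.

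Tlr4, which binds lipopolysaccharide together with Ly96 and Cd14 (ENSMUSG00000039005, chr4:66827584-66930284, + strand), had 1126, 877, 949.9, 913 and 706 normalized counts in KPC mice, against 759, 824, 679, 702 and 989 in sham mice. The groups overlapped, with a difference of 0.21 ± 0.14 on the log2 scale and an interval of 0.935-fold to 1.43-fold (limma adjusted p = 0.529). Tlr2, which binds bacterial lipoproteins with Tlr1 or Tlr6 as its partner (ENSMUSG00000027995, chr3:83836272-83841767, - strand), had 784, 255, 237, 257 and 175 normalized counts in KPC mice, against 224, 188, 206, 178 and 261 in sham mice. KPC mouse 1 alone lay above all sham mice for Tlr2. The Tlr2 difference was 0.48 ± 0.33 on the log2 scale, or 1.39-fold (limma adjusted p = 0.548), and 0.12, or 1.09-fold, without that mouse.

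Tlr1 and Tlr6, the partners of Tlr2, are alike in part of their sequence and lie 18467 bases apart on chromosome 5. Of the 45 pairs of members, theirs was the 1 pair to share any stretch of 31 bases, and it shared 18.3% of the 31-base stretches of Tlr1 and 16.4% of those of Tlr6. Their longest shared run is 229 bases of coding sequence, printed here once because reads from it cannot be assigned to either gene by sequence. It lies at chr5:64925537-64925765 in Tlr1 and at chr5:64953828-64954056 in Tlr6, both on the - strand of GRCm38, and reads 5′ to 3′ on that strand.
Tlr1 and Tlr6, shared run: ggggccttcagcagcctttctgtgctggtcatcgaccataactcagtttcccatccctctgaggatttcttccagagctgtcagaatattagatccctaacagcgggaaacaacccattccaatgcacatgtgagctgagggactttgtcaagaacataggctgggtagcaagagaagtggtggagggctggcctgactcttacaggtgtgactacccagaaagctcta
Tlr6 (ENSMUSG00000051498, chr5:64952031-64960097, - strand) had 142, 59.1, 70.4, 62.4 and 57.5 normalized counts in KPC mice, against 41.0, 59.2, 47.2, 44.4 and 62.9 in sham mice. The groups overlapped, with KPC mouse 1 far above the rest. The Tlr6 difference was 0.54 ± 0.27 on the log2 scale (limma adjusted p = 0.409), and 0.30 without KPC mouse 1. Tlr1 (ENSMUSG00000044827, chr5:64924679-64933563, - strand) was listed at 408.7, 51.5, 0, 46.7 and 0 normalized counts in KPC mice, against 28.2, 46.3, 67.4, 13.8 and 48.3 in sham mice. It was thus listed at 0 in KPC mice 3 and 5, at its highest in KPC mouse 1, and no fold is given. The Tlr1 difference on the log2 scale was -1.21 ± 1.50 (limma adjusted p = 0.752). It was -2.39 without KPC mouse 1 and -0.22 without either KPC mouse 3 or KPC mouse 5. With both genes summed, KPC mice had 550.4, 111, 70.4, 109 and 57.5 normalized counts, against 69.2, 106, 115, 58.2 and 111 in sham mice. The summed difference was 0.46 ± 0.52 on the log2 scale (limma adjusted p = 0.725) and -0.08 without KPC mouse 1. How reads from the shared stretches were divided between these genes is uncertain in the Tlr1 and Tlr6 values.

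By level, Tlr4 was the most abundant member in both groups, at 12.96 ± 1.90 TPM in KPC mice and 11.5 ± 2.04 TPM in sham mice (SD, n = 5 each). In KPC mice Tlr7 followed at 6.52 ± 3.81 TPM, then Tlr2 at 5.42 ± 3.75, Tlr8 at 5.33 ± 2.05, Tlr5 at 3.30 ± 0.845, Tlr13 at 2.30 ± 1.93, Tlr3 at 2.22 ± 0.961, Tlr9 at 1.52 ± 0.433 and Tlr6 at 1.15 ± 0.485 TPM. The ranges of all neighbours in that order overlapped, although within each of the 5 KPC mice Tlr4 exceeded Tlr7, Tlr8 exceeded Tlr5 and Tlr9 exceeded Tlr6. In sham mice Tlr4 was followed by Tlr2 at 3.48 ± 0.589, Tlr7 at 3.10 ± 1.02, Tlr8 at 2.62 ± 0.442, Tlr5 at 2.21 ± 0.512, Tlr3 at 2.12 ± 0.522, Tlr9 at 0.998 ± 0.333, Tlr6 at 0.782 ± 0.164 and Tlr13 at 0.654 ± 0.211 TPM. There the ranges separated only between Tlr4 and Tlr2 and between Tlr3 and Tlr9. Tlr1 is left out of both orders because of its values of 0.

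Tlr13 had the lowest mean of these 9 in sham mice, and in KPC mice its mean was 1.44 TPM without KPC mouse 1, under that of Tlr3 at 2.11 TPM. Of the summed TPM of all 10 members, Tlr4 made up 23.9%, 35.1%, 39.7%, 26.9% and 34.5% in KPC mice, against 40.9%, 41.7%, 36.4%, 41.6% and 42.3% in sham mice. Its share lay under all sham values in 4 of 5 KPC mice. The share of Tlr13 was 8.97%, 3.46%, 3.59%, 3.44% and 5.31% in KPC mice, against 3.64%, 1.53%, 2.63%, 1.65% and 2.23% in sham mice. The summed level itself was 29.9 to 63.8 TPM in KPC mice and 24.03 to 35.3 TPM in sham mice. Shares of a sum are not independent of each other. Of the other mouse members of the family, Tlr11 stood at 0.269 ± 0.0907 TPM in KPC mice and 0.292 ± 0.0984 TPM in sham mice (limma adjusted p = 0.951), and Tlr12, which missed the filter, at 0.0421 to 0.136 TPM in KPC mice and 0.0708 to 0.319 TPM in sham mice.

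**Figure D3:**
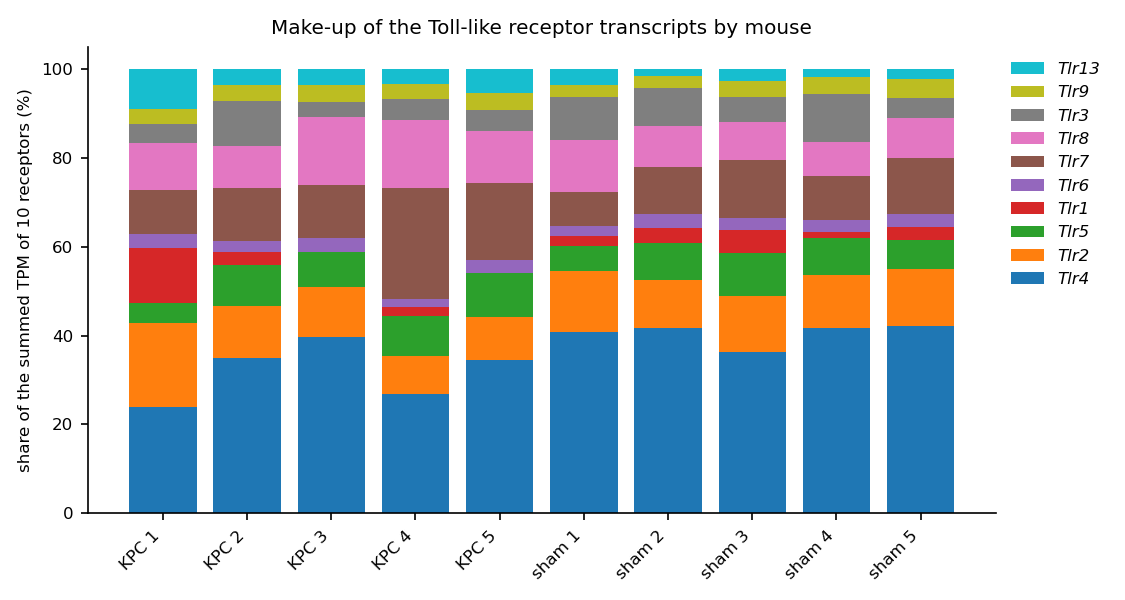
Share of each member, in percent, of the summed TPM of all 10 members in each mouse, with KPC mice left of sham mice and 1 colour per member. Tlr4, at the base of each bar, takes 23.9% to 39.7% in KPC mice and 36.4% to 42.3% in sham mice, and Tlr13, at the top, 3.44% to 8.97% in KPC mice and 1.53% to 3.64% in sham mice.

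Macrophage markers stood at larger summed levels in KPC mice. The 12 macrophage markers summed to 969.5 to 2922 TPM in KPC mice, or 969.5 to 1380.2 TPM without KPC mouse 1, and 554.7 to 892 TPM in sham mice, so the groups did not overlap. All 12 had a positive difference, with 0 called at an adjusted p under 0.05 in limma and 11 higher at an unadjusted p under 0.05, against 7.61% of all genes. The 8 monocyte markers summed to 182 to 917 TPM in KPC mice, or 182 to 274 TPM without KPC mouse 1, and 120.1 to 189 TPM in sham mice, with overlap, and 6 of 8 were higher at that unadjusted level. The 8 neutrophil markers summed to 42.9 to 269 TPM in KPC mice, or 42.9 to 98.6 TPM without KPC mouse 1, and 32.5 to 71.1 TPM in sham mice, with overlap, and 1 of 6 tested was higher at that level. The sum of the 6 markers of conventional dendritic cells did not overlap, at 29.6 to 39.3 TPM in KPC mice and 15.8 to 27.3 TPM in sham mice, but most of it was Cd209a, at 25.2 ± 3.97 TPM in KPC mice and 14.4 ± 3.33 TPM in sham mice (limma adjusted p = 0.0795), and each of the other markers overlapped. Of the plasmacytoid dendritic cell markers, all 3 tested had a positive difference and 1, Bst2, was higher at that unadjusted level. Their sum was 140.6 to 298.5 TPM in KPC mice, or 140.6 to 205.6 TPM without KPC mouse 1, and 121.7 to 166.6 TPM in sham mice, with overlap. Bst2 made up most of it, at 169 ± 66.9 TPM in KPC mice and 118.9 ± 15.3 TPM in sham mice (limma adjusted p = 0.369). Siglech, the more specific one, stood at 2.47 ± 0.735 TPM in KPC mice and 2.69 ± 1.38 TPM in sham mice (limma adjusted p = 0.981). The B cell markers had a median difference of -0.33 on the log2 scale, with 1 of 3 tested positive and a sum of 4.13 to 6.01 TPM in KPC mice, or 4.13 to 4.67 TPM without KPC mouse 1, against 3.38 to 5.51 TPM in sham mice. The T cell markers had a median of 0.66, with all 5 tested positive and 1 higher at that unadjusted level. Their sum was 4.15 to 6.96 TPM in KPC mice and 3.06 to 5.14 TPM in sham mice, with overlap. For fibroblast and endothelial markers the medians were -0.13 and -0.005, with 0 higher or lower at that level. Cd209a, Bst2 and Siglech were picked out after their values were seen. No marker of these lists was at 0 in all libraries. The part of these cells in the differences of the receptors was not tested.

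Set against the mean of the 12 macrophage markers in the same mouse, the members stood on both sides of 0. The macrophage marker mean itself lay 1.79, 0.72, 0.60, 0.92 and 0.41 above its sham mean on the log2 scale in KPC mice, against -0.15, 0.03, 0.04, -0.23 and 0.32 in sham mice. Relative to it, Tlr13 averaged 0.71 ± 0.49 in KPC mice (SD, n = 5), with a range of 0.28 to 1.48 that overlapped the sham range of -0.52 to 0.79. Tlr7 averaged 0.12 ± 0.66 and Tlr8 averaged 0.09 ± 0.42 in KPC mice on this scale, on which the sham mean is 0. Tlr9 stood at -0.24 ± 0.16, Tlr5 at -0.28 ± 0.56, Tlr6 at -0.35 ± 0.20, Tlr2 at -0.41 ± 0.31 and Tlr3 at -0.87 ± 0.60. Without KPC mouse 1 the KPC mean was 0.52 for Tlr13, 0.31 for Tlr7 and -0.04 for Tlr5. Tlr4 ran from -1.26 to -0.33 in KPC mice and from -0.24 to 0.11 in sham mice, with no overlap. Before the subtraction the Tlr4 groups overlapped, while the marker mean did not. A gene with little difference of its own can thus fall under the sham range on this scale. These values are a description, with no test.

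**Figure D4:**
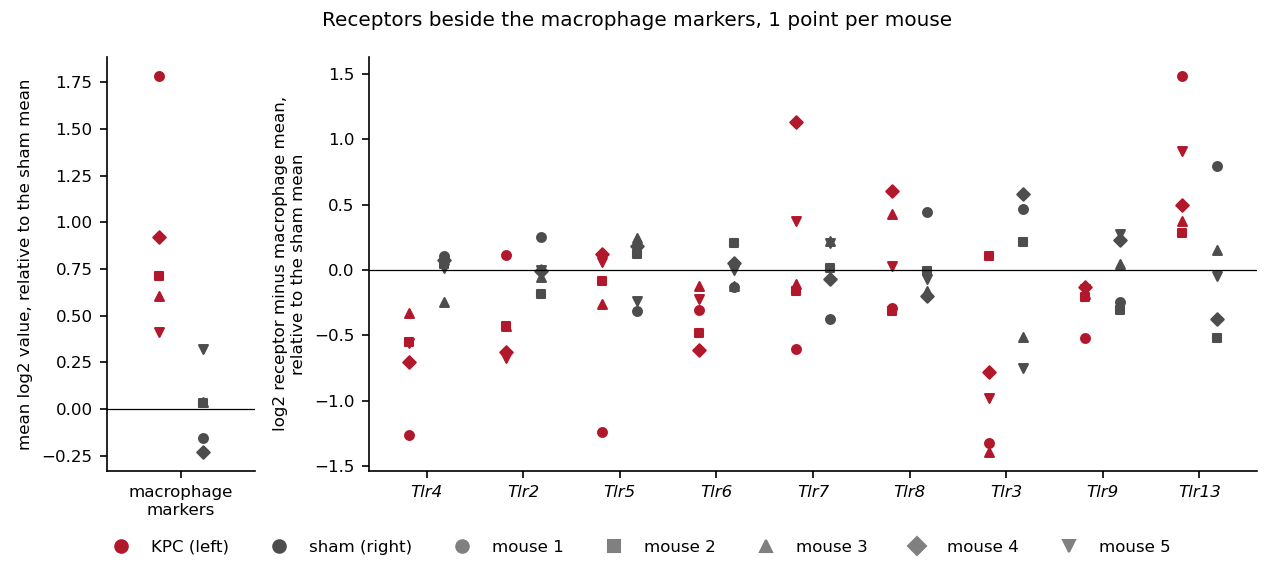
The left panel shows the mean log2 value of 12 macrophage markers relative to its sham mean, and the right panel each member's log2(normalized count + 1) minus that marker mean in the same mouse, relative to the sham mean, with KPC mice left of sham mice and 1 point per mouse; Tlr1 is left out because it is listed at 0 in 2 mice. Tlr4 runs from -1.26 to -0.33 in KPC mice, under all sham mice, while Tlr13 runs from 0.28 to 1.48 and overlaps the sham range. The marker mean that is subtracted does not itself overlap between the groups.

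The other genes of the pathway are given by role, and 0 genes of these lists passed at an adjusted p under 0.05 in limma with all 10 mice. The counts at an unadjusted p under 0.05 that follow stand beside 7.61% of all genes tested that were higher at that level and 5.91% that were lower. Pathway genes said to have no overlap had every KPC mouse above every sham mouse in normalized counts, as did 2.75% of all genes. Of the 6 binding partners and co-receptors, 2 were higher. Cd14, which hands lipopolysaccharide to Tlr4, averaged 27.1 ± 11.99 TPM in KPC mice and 13.2 ± 3.70 TPM in sham mice (limma adjusted p = 0.197). Ly86, a partner of the related receptor Cd180, averaged 47.7 ± 37.9 TPM in KPC mice and 16.6 ± 4.31 TPM in sham mice, without overlap (limma adjusted p = 0.199). Without KPC mouse 1, Ly86 averaged 30.9 ± 6.48 TPM in KPC mice. Ly96, the partner of Tlr4, averaged 18.6 ± 5.51 TPM in KPC mice and 13.8 ± 2.46 TPM in sham mice (limma adjusted p = 0.406). Of 10 endogenous ligands 1 was higher at that unadjusted level, the serum amyloid gene Saa3, at 15.4 to 1405 TPM in KPC mice and 4.81 to 14.4 TPM in sham mice, with a KPC mean of 37.0 TPM without KPC mouse 1.

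The endosomal receptors need folding, transport and cleavage, and 5 of the 12 tested genes for these steps were higher at an unadjusted p under 0.05, with a median log2 difference of 0.29, beside 7.61% of all genes higher at that level. Unc93b1, which carries them to endosomes, averaged 76.0 ± 30.5 TPM in KPC mice and 43.5 ± 7.57 TPM in sham mice, without overlap (limma adjusted p = 0.199). Slc15a3, an endosomal transporter of histidine and peptides, averaged 4.22 ± 2.72 TPM in KPC mice and 1.74 ± 0.264 TPM in sham mice, without overlap (limma adjusted p = 0.233). Ctss, a protease that can cleave these receptors, averaged 128 ± 113 TPM in KPC mice and 45.3 ± 10.0 TPM in sham mice, without overlap (limma adjusted p = 0.252). Without KPC mouse 1, Ctss averaged 77.1 ± 12.7 TPM in KPC mice, with a limma adjusted p of 0.0489. That fit called 66 of the 14203 genes tested higher and 4 lower, against 7 and 1 with all 10 mice. Tasl, an adaptor of this group, was not analysed here.

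Among 7 adaptors, 4 were higher at an unadjusted p under 0.05, beside 7.61% of all genes, with a median of 0.48. Myd88 averaged 30.6 ± 10.7 TPM in KPC mice and 21.7 ± 1.69 TPM in sham mice (limma adjusted p = 0.342), and Ticam1 averaged 6.98 ± 0.890 TPM in KPC mice and 6.09 ± 0.365 TPM in sham mice (limma adjusted p = 0.367). Of 18 kinases and ubiquitin enzymes, 5 were higher at that level and the median was 0.02. Ripk1, a kinase on the Ticam1 route, averaged 16.7 ± 1.11 TPM in KPC mice and 13.8 ± 0.149 TPM in sham mice, and Irak4, the first kinase after Myd88, averaged 9.54 ± 1.46 TPM in KPC mice and 7.19 ± 0.435 TPM in sham mice, both without overlap (limma adjusted p = 0.171 for Ripk1 and 0.199 for Irak4). Of 7 transcription factors 2 were higher at that unadjusted level, with a median of 0.19. Among them, Irf5 averaged 17.6 ± 9.58 TPM in KPC mice and 10.1 ± 1.33 TPM in sham mice, without overlap in normalized counts (limma adjusted p = 0.299). Without KPC mouse 1, Myd88 averaged 25.97 ± 3.41 TPM and Irf5 averaged 13.35 ± 1.13 TPM in KPC mice.

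Inhibitors of the pathway had a median of 0.48, and 6 of 15 were higher at an unadjusted p under 0.05, beside 7.61% of all genes. Atf3, a repressor of inflammatory genes, averaged 17.3 ± 7.22 TPM in KPC mice and 6.11 ± 1.01 TPM in sham mice, without overlap. Its log2 difference was 1.43 (limma adjusted p = 0.0956). Irak3, which blocks the Irak kinases, averaged 8.97 ± 1.38 TPM in KPC mice and 6.76 ± 0.870 TPM in sham mice, without overlap in normalized counts (limma adjusted p = 0.126). Tnfaip8l2, named after its values were seen, showed no overlap and had an adjusted p of 0.199 in limma. Without KPC mouse 1 its limma adjusted p was 0.0468, in a fit that called 66 of 14203 genes higher and 4 lower. Of 22 induced targets 15 were tested, with a median of 0.69, and 4 were higher and 1 lower at that level, beside 7.61% and 5.91% of all genes. Nfkbia, the NF-kappa-B inhibitor that is itself induced, averaged 95.9 ± 25.2 TPM in KPC mice and 56.3 ± 9.18 TPM in sham mice, without overlap (limma adjusted p = 0.0795). The lower one was Ccrl2, an atypical chemokine receptor named after its values were seen, at 0.752 ± 0.181 TPM in KPC mice and 1.48 ± 0.843 TPM in sham mice (limma adjusted p = 0.369). Tnf, Il12b, Ccl3, Ccl4, Cxcl2, Ifnb1 and Acod1 missed the filter on low values.

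**Figure D5:**
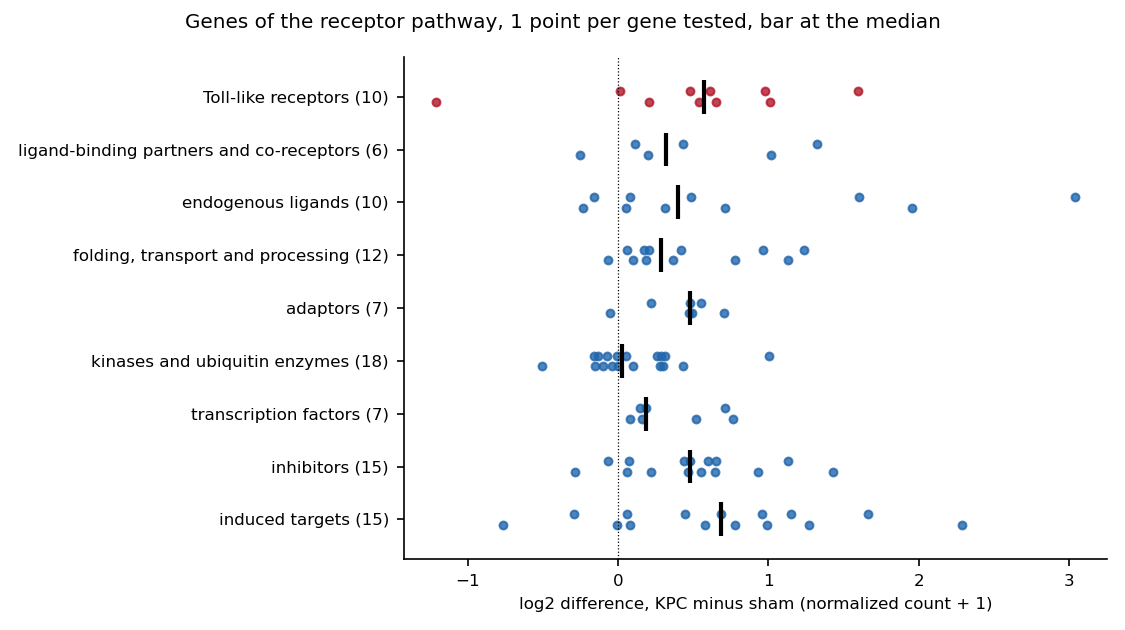
The log2 difference, KPC minus sham, of every tested gene of the receptor family and of 8 pathway lists, with the number tested in brackets, 1 point per gene and a bar at the median. The medians run from 0.02 for kinases and ubiquitin enzymes to 0.69 for induced targets, beside 0.57 for the receptors and -0.02 for all genes. These medians are given only with KPC mouse 1, and without it the receptor median was 0.40.

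For each member the genes with the most similar profile over the 10 mice were found by the root mean square difference of centred log2 values among 12134 genes. For Tlr13 these were Ms4a4a and Csf3r, at 0.26 and 0.27. For Tlr8 they were Syk and Cyp1b1, at 0.23 and 0.24, and for Tlr7 Gm7609 and Cd163, at 0.26 and 0.29. Tlr9 lay nearest to Cybb and Iqgap2, Tlr2 to Metrnl and Cmtm7, Tlr6 to Lhfp and Aldh3b1, Tlr4 to Kdm2b and Orai3, and Tlr5 to Arrdc3 and Tmem140. Tlr3 had Ago3 and Dnajb13 nearest, and Tlr1 had Cma1 and Taf1d at a far larger 1.51 and 1.53. Between members the closest pairs were Tlr6 with Tlr9 at 0.27 and Tlr2 with Tlr6 at 0.28. All profiles share the same 10 libraries, KPC mouse 1 included.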

How the data were processed

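Visceral fat RNA of 5 KPC and 5 sham mice was analysed from 2 tables. The authors deposited normalized counts, handled here as a signal, and TPM; the submitters' processing notes name Salmon, DESeq2, DESeq and build mm10, while versions and strandedness were not given in the sources used here. At best 31.1% to 47.3% of values up to 30 per library came out within 0.05 of a whole read, so no count model was run. Of all genes, the 14203 averaging 10 or more were fitted as log2(normalized count + 1) in limma 3.58.1 under R 4.3.3, with a trended prior variance, and Benjamini-Hochberg adjustment covered all of them at a threshold of 0.05. The fold changes understate low genes. Replicates are the mice numbered in the labels. The fit was tested on simulated data. Members and lists were chosen with earlier results of these data known. Named genes are all members, up to 3 genes per pathway list with the smallest p, 6 set genes (Cd14, Ly96, Unc93b1, Myd88, Ticam1, Irak3) and the 2 nearest profiles per member; others are marked where named. Positions follow GENCODE vM21 (GRCm38), by gene identifier. In the promoters 6 motifs were searched first, and shorter forms of 2 of them were added after their matches had been seen. Alternatives were another scaling, pseudocounts, filters, weights, blocks and leaving out each mouse.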

Additional observations from a re-analysis of the deposited data

Results flagged for a closer look

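On the log2 scale, 3 of 20 groups of 5 mice, 1 per member and condition, held a value far from the others. For independent groups chance gives about 1 in 20, but these groups share the same libraries and are not independent. All 3 were KPC mouse 1, at 784 normalized counts of Tlr2, 141.7 of Tlr6 and 481.2 of Tlr13. On the linear scale of normalized counts there were 4, these and KPC mouse 1 for Tlr1, at 408.7. That library also stood apart in its mitochondrial share and red cell markers, and its macrophage markers were the highest of all libraries, at 2922 TPM. The part of these in the values was not tested.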

How the results depend on the processing

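The count of members called was 0 in every alternative but 1. With array weights, which gave KPC mouse 1 a weight of 0.177, 1 member was called, Tlr13, at a log2 difference of 1.46 (limma adjusted p = 0.0329), and over all genes 172 were called higher and 28 lower, against 7 and 1 without weights. The adjusted p of Tlr13 ran from 0.0329 to 0.440 over its 20 alternatives. Without KPC mouse 1, 66 genes were called higher and 4 lower, none of them a member. The direction of Tlr1 reversed with TPM (0.18) and, chosen after seeing the data, with Tlr1 and Tlr6 summed (0.46). Tlr3 reversed with array weights (-0.14) and ran from -0.19 to 0.21 when each mouse was left out. The causes were not tested. Other members kept their direction in all alternatives run.

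On log2(TPM + 1) the median of the members was 0.36 and Tlr13 stood at 0.86, and without KPC mouse 1 the median was 0.40. With the replicate number as a replicate block, 0 members were called, the median was 0.57 and Tlr13 stood at 1.60 (limma adjusted p = 0.123). The first number of the sample titles as a block gave 1.54 for Tlr13 and 0 calls. Mice with the same number deviated together with correlations of 0.068, 0.191, 0.00506, 0.0200 and 0.171, not all above 0.1, and the labels do not say what a number marks. All-gene calls ran from 1 to 66 higher when each mouse was left out, and were 2 higher and 0 lower with TPM, 2 and 1 without a variance trend, and 3 and 1 with either block. The motif matches of NF-kappa-B and ISRE changed with their letters, to 2 members from 1 and to 3 from 1 with the shorter forms. At 5 mice a group the SE of the members ran from 0.14 for Tlr4 to 1.50 for Tlr1.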
